A study of Mus musculus with 16 samples.

Results

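Hepatokines are proteins that the liver secretes into blood and that act on other organs. The genes of 9 of them were followed in mouse liver: Fgf21, Gdf15, Angptl4, Inhbe, Igfbp1, Igfbp2, Lect2, Fgl1 and Enho. They were chosen by symbol, as liver hormones with known roles in nutrition, stress and inflammation, and make up 9 of the 17410 genes in the tables. Each was listed in all 16 livers, and all 9 passed the filter on low counts in both comparisons.

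Fgf21 and Gdf15 are induced in stressed cells through the integrated stress response, in which the kinases that sense amino acid shortage or misfolded protein raise translation of the transcription factor ATF4. Fgf21 is also a fasting hormone under PPARα and a sugar-responsive target of ChREBP, and signals through FGF receptors with the co-receptor β-Klotho (Klb), while GDF15 acts in the hindbrain through GFRAL and RET. ANGPTL4 inhibits lipoprotein lipase, and activin E, the protein of Inhbe, restrains lipolysis in fat through the receptor Acvr1c. IGFBP1 and IGFBP2 bind insulin-like growth factors, and Igfbp1 is turned on by FOXO1 when insulin is low. LECT2 is a chemotactic protein made by hepatocytes, FGL1 is a fibrinogen-like protein induced with the acute-phase response, and Enho encodes adropin, a peptide linked to fuel choice.

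The 16 livers formed 4 groups of 4 in 2 experiments. Both concern ChREBPα, a form of the sugar-sensing transcription factor that Mlxipl encodes. In LKO_NASH (livers 21 to 24), mice of genotype Chrebpα-flox/flox were given AAV-TBG-Cre, an adeno-associated virus whose Cre is under TBG, a promoter active in hepatocytes, so other liver cells keep the gene. WT_NASH (livers 17 to 20) were mice of the same Chrebpα-flox/flox genotype given AAV-TBG-GFP. Both groups ate a NASH diet for 12 weeks, in which fat made up 40% of calories and fructose 20%, with cholesterol at 2%. In Ad_Chrebpa_HFLMCD (livers 13 to 16) and Ad_GFP_HFLMCD (livers 9 to 12), wildtype mice were given an adenovirus for Chrebpα or for GFP 1 week before dissection. These mice started an HFLMCD diet at 2 months of age and ate it for 3 weeks in all; it had 45% of calories from fat, no choline and 0.1% methionine. The design asks what loss, or gain, of ChREBPα does in a liver on a steatohepatitis diet.

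The libraries held 21254937 to 40327264 expected counts, and levels are given as FPKM, the authors' measure of fragments relative to transcript length and library size. Liver 21 stood apart from the other LKO_NASH livers: without it 420 genes were called in the deletion experiment, and with it 0. Total Mlxipl, the targeted gene, did not separate the groups: it averaged 76.4 ± 22.3 FPKM in LKO_NASH and 66.1 ± 15.1 in WT_NASH, and 46.1 ± 1.41 in Ad_Chrebpa_HFLMCD and 43.7 ± 4.61 in Ad_GFP_HFLMCD (SD, n = 4 each). The gene total does not distinguish the α form, the labels do not name the deleted stretch, and groups are called by their labels throughout. The Mlxipl levels of Ad_Chrebpa_HFLMCD and Ad_GFP_HFLMCD overlapped, so overexpression was not seen in the gene total. The names deletion experiment and overexpression experiment likewise follow the labels. Hepatocyte markers dominated every liver, with a summed level of 44013 to 70000 FPKM over 10 genes, while the adipocyte marker Adipoq never exceeded 0.05. The adipocyte markers Plin1 and Lep did not exceed 0.05 either, but Cidec of the same list had 13.6 to 97.2 FPKM across the livers. In whole liver, fewer cells of a type and less RNA per cell cannot be told apart.

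Igfbp2 was the most abundant of the 9 transcripts in 3 groups, with 300.4 ± 73.6 FPKM in LKO_NASH, 751 ± 120.3 in Ad_Chrebpa_HFLMCD and 506 ± 93.6 in Ad_GFP_HFLMCD. In WT_NASH, Fgl1 stood above it at 405 ± 293, with livers that overlapped those of Igfbp2 at 379 ± 90.0 (SD, n = 4). Enho was the lowest in 3 groups, at 1.44 ± 1.14 FPKM in LKO_NASH, 11.3 ± 3.09 in Ad_Chrebpa_HFLMCD and 14.2 ± 4.83 in Ad_GFP_HFLMCD, and Gdf15 was the lowest in WT_NASH at 3.72 ± 0.773. In both NASH groups, Lect2 and Inhbe, neighbours in the order, did not overlap, with Lect2 above. In both HFLMCD groups Igfbp2 lay above Lect2, and Lect2 above Fgl1, without overlap, and every other pair of neighbours there did overlap.

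**Figure D1:**
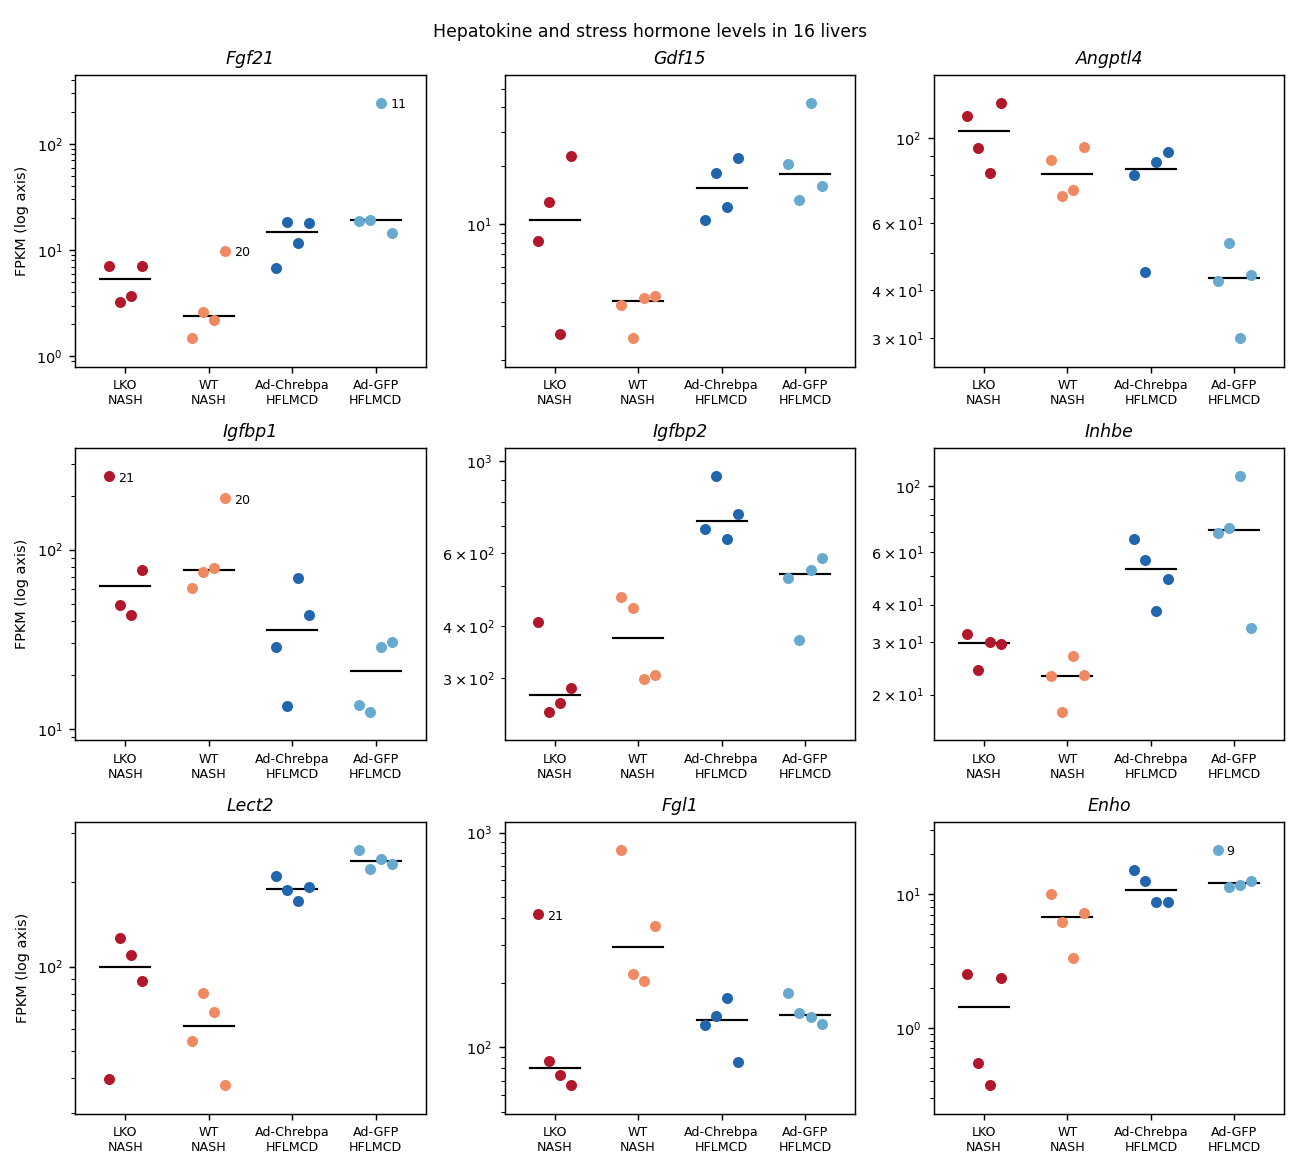
FPKM of each gene (log axis) in every liver, with a bar at the median of the 4 livers; livers standing apart from their group are numbered. Fgf21 of liver 11 in Ad_GFP_HFLMCD lies at 244 FPKM, Igfbp1 and Fgl1 of liver 21 lie far above the other LKO_NASH livers, and every LKO_NASH liver lies below every WT_NASH liver for Enho.

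The promoters of Fgf21 and Inhbe are shown because both windows hold TTGCATCA, and that of Igfbp2 because its transcript rose in the overexpression experiment and its window holds an E-box. Fgf21 and Gdf15 have a window with an E-box too, and neither gene was called in that experiment. Angptl4, which also rose there, had no window, and neither had Fgl1 or Enho. Each window runs from 250 bases before to 50 bases after a transcription start, 5′ to 3′ on the gene's strand, from RefSeq on GRCm38.p6. Capitals mark CACGTG, the palindromic E-box core, and TTGCATCA, the other strand of TGATGCAA, a composite C/EBP-ATF element bound by ATF4.

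Fgf21 (chr7:45615441-45615740, minus strand): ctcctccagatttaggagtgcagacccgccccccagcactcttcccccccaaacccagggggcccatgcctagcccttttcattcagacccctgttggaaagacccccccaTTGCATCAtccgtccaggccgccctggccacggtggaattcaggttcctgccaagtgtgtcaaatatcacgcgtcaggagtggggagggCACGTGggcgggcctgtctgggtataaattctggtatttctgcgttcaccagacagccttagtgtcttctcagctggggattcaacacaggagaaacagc

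Inhbe (chr10:127351799-127352098, minus strand): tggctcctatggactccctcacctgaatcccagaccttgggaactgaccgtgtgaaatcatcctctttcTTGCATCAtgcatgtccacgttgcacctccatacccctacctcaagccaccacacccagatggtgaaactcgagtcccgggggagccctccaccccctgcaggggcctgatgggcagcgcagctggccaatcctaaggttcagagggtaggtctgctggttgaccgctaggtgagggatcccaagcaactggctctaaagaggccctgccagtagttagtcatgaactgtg

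Igfbp2 (chr1:72824230-72824529, plus strand, the first of 2 windows): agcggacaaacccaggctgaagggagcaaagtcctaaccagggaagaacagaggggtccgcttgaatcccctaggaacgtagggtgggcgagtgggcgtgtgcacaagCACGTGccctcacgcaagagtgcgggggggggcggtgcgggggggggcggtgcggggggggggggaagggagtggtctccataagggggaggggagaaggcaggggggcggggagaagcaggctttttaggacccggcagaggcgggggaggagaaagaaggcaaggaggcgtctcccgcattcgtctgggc

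In Fgf21 the E-box began 50 bases and TTGCATCA 139 bases before the start, and in Inhbe TTGCATCA began 181 bases before it. The Igfbp2 E-box began 142 bases before the start, and the first of 2 Gdf15 windows held an E-box 83 bases before its start. Neither Gdf15 window held TTGCATCA. A link between these letters and the levels in any liver was not tested. Of all 32851 promoter windows, 7.15% held CACGTG and 0.895% held TGATGCAA on either strand. Igfbp1 held AAAACAA, the core of an insulin response element, 107 bases before its start, as did 9.02% of windows on either strand. In all 14 motifs were searched on both strands in the 8 windows of 6 of the genes, some motifs overlapping or contained in others, and a match describes letters in a window and not a bound site.

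In the deletion experiment none of the 9 hormone genes passed the test, and 0% of the 12786 genes tested did (edgeR's quasi-likelihood test, Benjamini-Hochberg adjusted over all genes, threshold 0.05). Without liver 21, 2 of the 9 passed, Enho and Fgl1, both lower in LKO_NASH. In that fit 420 of all 12975 genes tested passed, 166 higher and 254 lower. Enho had the lowest p of the 9 and Gdf15 the next, and these 2 had an unadjusted p below 0.05, against 13.6% of all genes. Enho was also the only gene of the 9 whose groups did not overlap, being lower in LKO_NASH, a pattern of 0.673% of all genes, while 6.93% were higher without overlap, 7.6% in all. Of the 9, 5 had a positive log2 fold change and 4 a negative one, with a median of 0.19, against 51.5% positive and a median of 0.01 over all genes.

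Enho, encoding adropin, had 2.51, 0.54, 0.37 and 2.34 FPKM in livers 21 to 24 (LKO_NASH), against 10.1, 6.19, 3.34 and 7.27 in livers 17 to 20 (WT_NASH). Livers 22 and 23 were the lowest of all 16, and the highest LKO_NASH liver lay under the lowest WT_NASH liver. The edgeR log2 fold change was -2.37 (SE 0.58, unadjusted p = 0.00272, adjusted p = 0.305). The call depended on the setting: Enho passed by DESeq2 (adjusted p = 0.00788), with all 16 livers in 1 fit (0.0367), without liver 21 (0.0461) and without livers 19 and 21 together (0.0260). Livers 19 and 21 were picked as a pair from earlier results of these data. For Enho they were the lowest WT_NASH and the highest LKO_NASH liver, so passing without the pair cannot support the difference. Expected counts of Enho were 10 to 94 in LKO_NASH and 165 to 349 in WT_NASH, so relative counting error is greatest in the livers with the lowest level.

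Gdf15, the stress hormone of the TGF-β superfamily, had 8.19, 13.0, 2.73 and 22.6 FPKM in livers 21 to 24 (LKO_NASH), against 3.86, 2.59, 4.17 and 4.26 in livers 17 to 20 (WT_NASH). Livers 21, 22 and 24 lay above every WT_NASH liver, and liver 23 lay inside the WT_NASH range. The log2 fold change was 1.46 (SE 0.49, unadjusted p = 0.0144, adjusted p = 0.343), and 0.97 without liver 24. The summed level of the macrophage markers was 231, 185, 91.9 and 182 FPKM in livers 21 to 24 (LKO_NASH), against 101, 69.5, 142 and 110.4 in livers 17 to 20 (WT_NASH). All 10 macrophage markers had a positive log2 fold change, 0 of them called, and liver 23 was the lowest LKO_NASH liver for the markers as for Gdf15; their part in the Gdf15 difference was not tested. Hepatocyte markers summed to 53838 to 63607 FPKM in LKO_NASH and 59292 to 70000 in WT_NASH, with 1 of 10 at a positive log2 fold change, a median of -0.33 and 0 called. Their part in the lower values of Enho, Igfbp2 and Fgl1 was not tested.

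Fgf21 had 7.05, 3.25, 3.69 and 7.07 FPKM in livers 21 to 24 (LKO_NASH), against 1.48, 2.63, 2.19 and 9.9 in livers 17 to 20 (WT_NASH). The groups overlapped only through liver 20, which had the highest level of the 8, and the other WT_NASH livers were all below LKO_NASH. The log2 fold change was 0.25 (SE 0.55, adjusted p = 0.826), 1.14 without liver 20 (adjusted p = 0.462) and -0.17 without livers 19 and 21.

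Angptl4, the inhibitor of lipoprotein lipase, had 115, 94.2, 81.3 and 124 FPKM in livers 21 to 24 (LKO_NASH), against 87.9, 70.8, 73.3 and 95.1 in livers 17 to 20 (WT_NASH), and the groups overlapped. Its log2 fold change was 0.19 (SE 0.15, adjusted p = 0.536). Inhbe, with the smallest coefficient of variation of the 9 in LKO_NASH (11.4%), averaged 28.9 ± 3.29 FPKM in LKO_NASH and 22.7 ± 3.88 in WT_NASH (SD, n = 4 each), and its log2 fold change was 0.21 (SE 0.14, adjusted p = 0.483). Its expected counts had decimals in all 16 livers, while those of the other 8 genes were whole numbers, as estimates have where reads are split between sequences.

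Igfbp1, the insulin-sensitive binding protein, had 257, 49.0, 43.0 and 76.8 FPKM in livers 21 to 24 (LKO_NASH), against 61.1, 75.2, 78.5 and 194 in livers 17 to 20 (WT_NASH). Each group held 1 liver far above its other 3, liver 21 in LKO_NASH and liver 20 in WT_NASH. The log2 fold change was -0.05 (SE 0.60, adjusted p = 0.972), -1.02 without liver 21 and 0.40 without liver 20. Igfbp2 had 408, 248, 261 and 284 FPKM in livers 21 to 24 (LKO_NASH), against 471, 442, 299 and 305 in livers 17 to 20 (WT_NASH). Livers 22 to 24 lay below every WT_NASH liver and liver 21 did not, and the log2 fold change was -0.49 (SE 0.24, adjusted p = 0.397), passing among the 18 alternatives only without livers 19 and 21 together (-0.81, adjusted p = 0.0444). For Igfbp2 too, that pair held the lowest WT_NASH and the highest LKO_NASH liver, so passing without the pair cannot support the difference.

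Fgl1 had 417, 86.7, 74.1 and 66.6 FPKM in livers 21 to 24 (LKO_NASH), against 831, 219, 204 and 366 in livers 17 to 20 (WT_NASH). Livers 22 to 24 lay below every WT_NASH liver, and liver 21 lay above 3 of the WT_NASH livers. The log2 fold change was -1.46 (SE 0.72, adjusted p = 0.397), and it passed without liver 21 (-2.60, adjusted p = 0.0412) and without livers 19 and 21 together (-2.82, adjusted p = 0.0227). Without liver 17 it was -0.81. Livers 19 and 21 were again the lowest WT_NASH and the highest LKO_NASH liver, so passing without the pair cannot support the Fgl1 difference. Lect2 had 39.5, 127, 110.2 and 88.6 FPKM in livers 21 to 24 (LKO_NASH), against 54.3, 80.7, 68.7 and 37.6 in livers 17 to 20 (WT_NASH). Livers 22 to 24 lay above every WT_NASH liver and liver 21 below 3 of them. Its log2 fold change was 0.43 (SE 0.35, adjusted p = 0.549), 0.68 without liver 21 and 0.24 without liver 20 or liver 22.

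Liver 21 thus stood with WT_NASH, or beyond it, for Igfbp1, Igfbp2, Fgl1 and Lect2, and not for Enho. The liver with the most Fgl1 in each NASH group was also high for acute-phase genes. Of the 18 genes of that list, 16 were highest in liver 21 among LKO_NASH and 17 were highest in liver 17 among WT_NASH. Liver 20, next after liver 17 for Fgl1 in WT_NASH (366 FPKM), was highest for 0 of the 18 and lowest for 10. Over all genes with a mean of at least 1 FPKM in the group, liver 21 was highest for 30.7% and liver 17 for 16.0%. Liver 20 was lowest for 11.5% of them. Serpina3n, an acute-phase protease inhibitor, had 987, 253, 257 and 234 FPKM in livers 21 to 24 (LKO_NASH), against 1712, 579, 443 and 674 in livers 17 to 20 (WT_NASH). Saa1 had 475, 74.4, 79.5 and 144 FPKM in livers 21 to 24 (LKO_NASH), against 1749.9, 535, 415 and 148 in livers 17 to 20 (WT_NASH). The part of the acute-phase response in the Fgl1 difference was not tested. Liver 21 was also highest for 9 of the 12 genes of the unfolded protein response list.

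**Figure D2:**
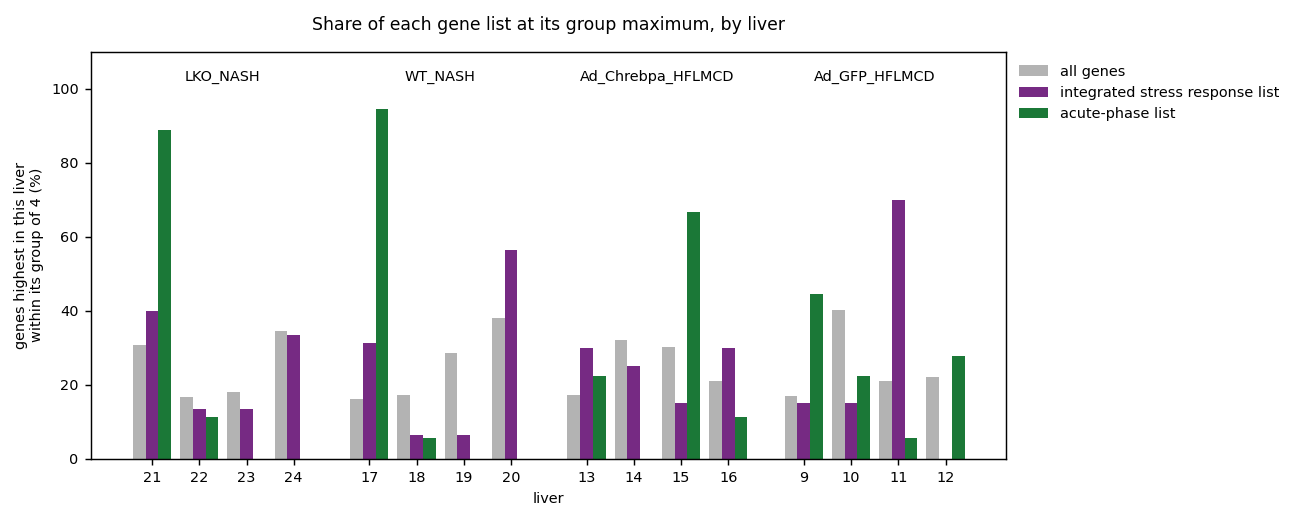
Percent of genes (y axis) for which each liver (x axis) was the highest of its group of 4, for all genes, the integrated stress response list and the acute-phase list, over genes with a mean of at least 1 FPKM in the group. Liver 21 and liver 17 stand out for acute-phase genes (88.9% and 94.4%), and liver 11 for stress response genes (14 of 20).

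Genes that act up- or downstream of the 9, and related or other secreted liver proteins, were read from 9 lists. None of these lists had a gene called in the deletion experiment. In the list of PPARα and fasting targets 18 of 20 genes had a positive log2 fold change, with a median of 0.41, against 0.01 over all genes; Acot2, a mitochondrial acyl-CoA thioesterase, averaged 12.9 ± 2.87 FPKM in LKO_NASH and 4.91 ± 0.772 in WT_NASH (adjusted p = 0.242). In the integrated stress response list 10 of 20 genes were positive, with Ddit4, an mTORC1 inhibitor, at a log2 fold change of 0.96 (adjusted p = 0.305). The unfolded protein response list had 1 of 12 positive and a median of -0.37, and the acute-phase list 0 of 18 and -0.81. Among insulin signalling genes and FOXO1 targets 7 of 12 were positive, with Foxo3 at 0.69 (adjusted p = 0.305), and in the growth hormone and IGF axis 9 of 15 were, with Igf1 at -0.40 (adjusted p = 0.343). Of the receptors, targets and proteases of the 9 hormones 4 of 14 tested were positive, of other secreted liver hormones 8 of 25, and of ChREBP, its partners and targets 7 of 16. On log2(FPKM + 1) the last 3 counts were 8 of 14, 12 of 25 and 13 of 16. The median turned from negative to positive with that scale for the receptor list (-0.11 by edgeR, 0.02 on log2(FPKM + 1)), the ChREBP list (-0.07 and 0.19) and the integrated stress response list (-0.04 and 0.10), and stayed negative for other secreted hormones (-0.22 and -0.07). The median over all genes moved up with the scale too, from 0.01 by edgeR to 0.10 on log2(FPKM + 1). Gfral, the GDF15 receptor, was listed at 0 in every NASH liver.

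In the overexpression experiment 2 of the 9 hormone genes rose in the livers labelled Ad_Chrebpa_HFLMCD, Angptl4 and Igfbp2, and none fell. Of the 13658 genes tested 8.13% were called, 4.95% higher and 3.18% lower. The count of 2 was 0 without any one of livers 9, 11, 12, 13 or 16, and 1 without liver 14 or 15. Groups did not overlap for Igfbp2, which was higher, and Lect2, which was lower; 4.84% of all genes were higher and 14.5% lower without overlap, 19.4% in all. At an unadjusted p below 0.05 there were 4 of the 9, Angptl4, Igfbp2, Lect2 and Fgf21, against 26.5% of all genes. Of the 9, 3 had a positive log2 fold change and 6 a negative one, with a median of -0.26, against -0.01 over all genes.

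Angptl4 had 80.1, 44.8, 86.5 and 92.3 FPKM in livers 13 to 16 (Ad_Chrebpa_HFLMCD), against 42.4, 53.4, 29.9 and 43.8 in livers 9 to 12 (Ad_GFP_HFLMCD). Livers 13, 15 and 16 lay above every Ad_GFP_HFLMCD liver and liver 14 among them. The edgeR log2 fold change was 0.92 (SE 0.22, adjusted p = 0.0338). The direction was the same under all 17 alternatives, but the adjusted p was above 0.05 without any one of livers 9, 11, 12, 13, 15 or 16 (0.0670 to 0.0995) and by limma on the log2 FPKM scales (0.0566 to 0.0876). Without liver 14 the log2 fold change was 1.10 (adjusted p = 0.00341).

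Igfbp2 had 686, 920.2, 649 and 748 FPKM in livers 13 to 16 (Ad_Chrebpa_HFLMCD), against 524, 371, 547 and 584 in livers 9 to 12 (Ad_GFP_HFLMCD). Every Ad_Chrebpa_HFLMCD liver lay above every Ad_GFP_HFLMCD liver, liver 14 being the highest and liver 10 the lowest. The log2 fold change was 0.63 (SE 0.16, adjusted p = 0.0384). The direction held under all 17 alternatives, with an adjusted p above 0.05 without any one of livers 9, 11, 12, 13, 14 or 16 (0.0530 to 0.0921), by limma on log2(FPKM + 1) without a filter (0.0689) and with all 16 livers in 1 fit (0.143). Of the chromosomal neighbours tested within 5 genes of Angptl4 and of Igfbp2, 0 were called here.

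Igfbp1 had 28.6, 13.35, 69.2 and 43.0 FPKM in livers 13 to 16 (Ad_Chrebpa_HFLMCD), against 13.55, 12.4, 28.8 and 30.7 in livers 9 to 12 (Ad_GFP_HFLMCD), and the groups overlapped. Its log2 fold change, 0.91 (SE 0.46, adjusted p = 0.242), was 0.48 without liver 15. Lect2 had 212, 188, 172 and 192 FPKM in livers 13 to 16 (Ad_Chrebpa_HFLMCD), against 262, 223, 243 and 233 in livers 9 to 12 (Ad_GFP_HFLMCD). Every Ad_Chrebpa_HFLMCD liver lay below every Ad_GFP_HFLMCD liver, and the log2 fold change was -0.26 (SE 0.09, adjusted p = 0.0978). Lect2 passed the threshold with limma on log2(FPKM + 1) (-0.33, adjusted p = 0.0273), a scale without TMM on which most calls were lower. Lect2 overlaps Fbxl21 in the genome, which had 0.69 to 4 FPKM over the 16 livers, and whether counting used strand is not known from the sources.

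Fgf21 had 6.74, 18.6, 11.7 and 18.2 FPKM in livers 13 to 16 (Ad_Chrebpa_HFLMCD), against 18.8, 19.4, 244 and 14.4 in livers 9 to 12 (Ad_GFP_HFLMCD). Liver 11 held 7526 expected counts of Fgf21, and the other Ad_GFP_HFLMCD livers 484 to 583. The log2 fold change was -2.37 (SE 0.91, adjusted p = 0.132) with liver 11 and -0.27 (adjusted p = 0.644) without it, so 1 liver decided the value. Gdf15 had 10.5, 18.5, 12.2 and 21.9 FPKM in livers 13 to 16 (Ad_Chrebpa_HFLMCD), against 20.5, 13.4, 42.2 and 15.75 in livers 9 to 12 (Ad_GFP_HFLMCD). Liver 11 was again the highest, and the log2 fold change, -0.48 (SE 0.37, adjusted p = 0.436), was 0.01 without it.

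Inhbe had 66.5, 56.4, 38.1 and 48.7 FPKM in livers 13 to 16 (Ad_Chrebpa_HFLMCD), against 69.5, 72.3, 108 and 33.5 in livers 9 to 12 (Ad_GFP_HFLMCD). Liver 11 was the highest and liver 12 the lowest of the 8, and the log2 fold change was -0.36 (SE 0.30, adjusted p = 0.484), or -0.07 without liver 11. Fgl1 had 131 ± 34.8 FPKM in Ad_Chrebpa_HFLMCD and 147 ± 21.8 in Ad_GFP_HFLMCD (SD, n = 4 each), and its log2 fold change was -0.11 (SE 0.18, adjusted p = 0.751). Enho had 15.0, 12.6, 8.74 and 8.73 FPKM in livers 13 to 16 (Ad_Chrebpa_HFLMCD), against 21.4, 11.3, 11.7 and 12.5 in livers 9 to 12 (Ad_GFP_HFLMCD). Its log2 fold change was -0.27 (SE 0.25, adjusted p = 0.542), and 0.01 without liver 9. Enho overlaps Dnaic1, which had 0 to 1.24 FPKM over the 16 livers. Whether the Enho, Angptl4 or Igfbp2 differences themselves differ between the experiments was not tested.

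**Figure D3:**
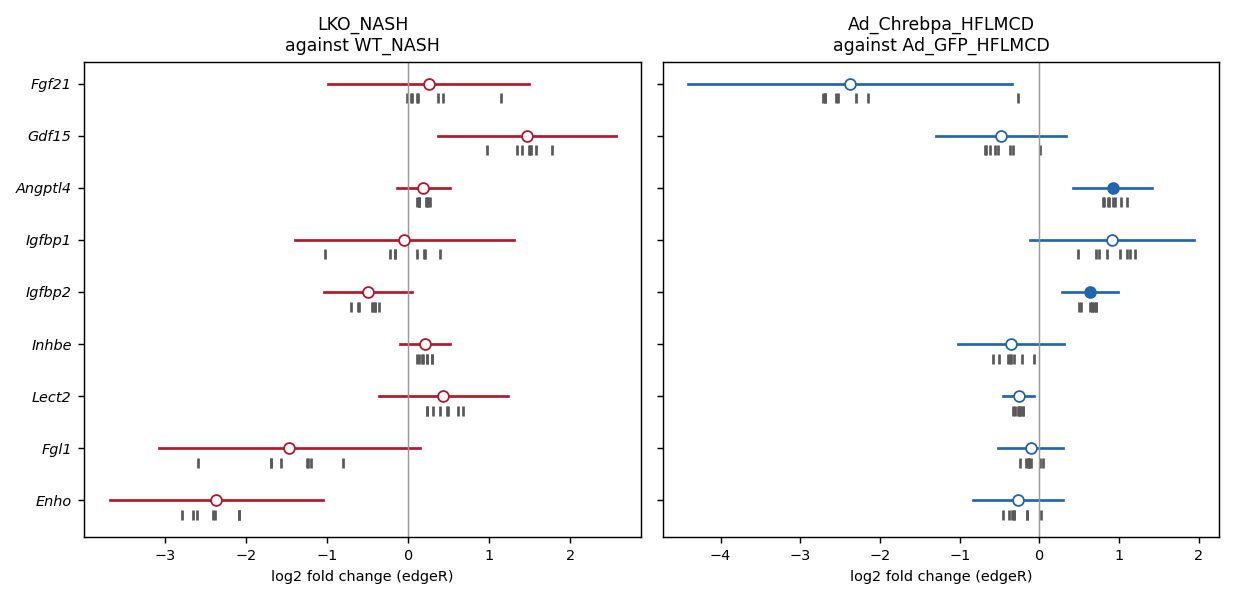
Log2 fold change of each gene with its 95% interval (edgeR), LKO_NASH against WT_NASH on the left and Ad_Chrebpa_HFLMCD against Ad_GFP_HFLMCD on the right; filled points passed an adjusted p of 0.05, and grey ticks are the values with each liver left out in turn. Angptl4 and Igfbp2 are the filled points, and the tick of Fgf21 at -0.27 on the right is the value without liver 11.

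Liver 11 of Ad_GFP_HFLMCD had the highest level of Fgf21, Gdf15 and Inhbe in its group. Its Fgf21 level was 13.0 times, its Gdf15 level 2.68 times and its Inhbe level 1.55 times the median of livers 9, 10 and 12. Of the 20 genes of the integrated stress response list with a mean of at least 1 FPKM, 14 were highest in liver 11, against 20.9% of all genes there. Chac1, which degrades glutathione, had 11.5 FPKM in liver 11 and 0.95 to 1.13 in the others, and Ddit3 (CHOP) had 23.5 in liver 11 and 9.03 to 11.3 in the others. Atf4 itself was at 129 FPKM in liver 11 and 66.2 to 78.8 in the others. Chac1, Ddit3 and Atf4 were picked after their values were seen. The unfolded protein response list did not show this, with 1 of 12 genes highest in liver 11, and Angptl4 was lowest there at 29.9 FPKM. Other lists stood above the 20.9% of all genes too. Liver 11 was highest for 9 of 20 PPARα and fasting targets and 5 of 12 insulin signalling genes and FOXO1 targets. Macrophage markers summed to 539 FPKM in liver 11, within the 495 to 879 of the group, and hepatocyte markers to 51948, within its 44013 to 54198.

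**Figure D4:**
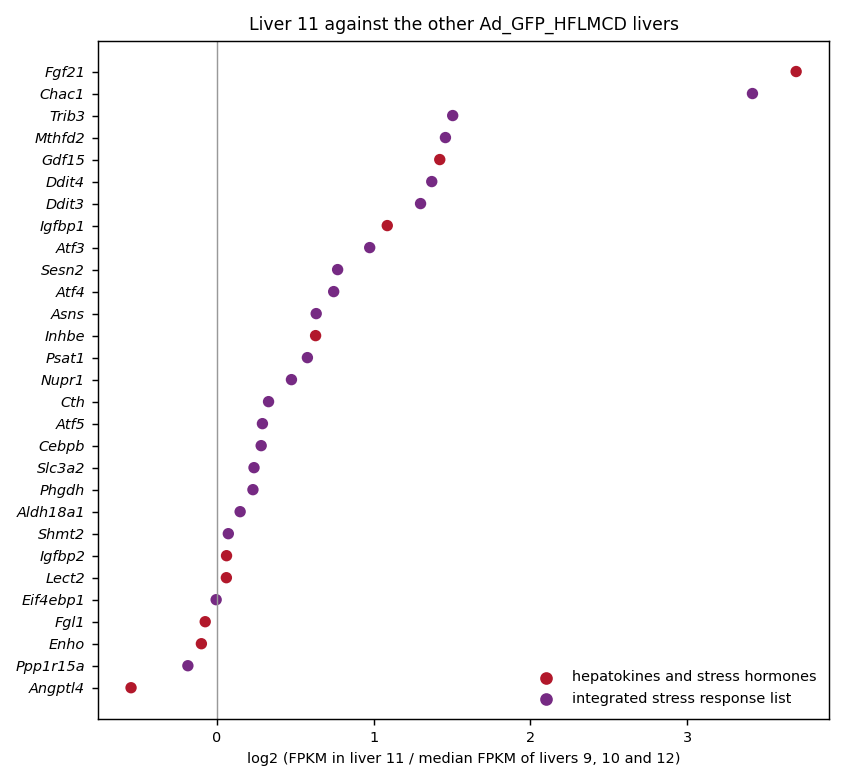
Log2 ratio of FPKM in liver 11 to the median of livers 9, 10 and 12 (x axis), for the 9 hormone genes and the integrated stress response list. Fgf21 (13.0-fold) and Chac1 (10.7-fold) lie far to the right, and Angptl4 (0.684) is the lowest.

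Liver 20 of WT_NASH, high for Fgf21 (9.9 FPKM) and Igfbp1 (194 FPKM), was highest for 9 of 16 stress response genes, against 38.1% of all genes there, and for 0 of 18 acute-phase genes. Its Chac1 level, 8.69 FPKM, lay inside the 7.77 to 14.0 of the group. G6pc, a gluconeogenic FOXO1 target named after its values were seen, had 781 FPKM in liver 20 and 148 to 464 in the other WT_NASH livers. Its list did not follow it. Of 12 insulin signalling genes and FOXO1 targets, liver 20 was highest for 3 and lowest for 3, against 38.1% and 11.5% of all genes.

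Of the receptors, targets and proteases of the hormones 5 of 15 tested rose in Ad_Chrebpa_HFLMCD and 0 fell, with a median log2 fold change of 0.21. Over all genes tested 4.95% rose and 3.18% fell, with a median of -0.01. Klb, the β-Klotho co-receptor of FGF21, averaged 7.78 ± 1.24 FPKM in Ad_Chrebpa_HFLMCD and 4.80 ± 0.897 in Ad_GFP_HFLMCD (SD, n = 4 each), a log2 fold change of 0.77 (adjusted p = 0.0185). Fgfr4 was at 0.39 (adjusted p = 0.0139), Fgfr2 at 0.43 (0.0390), the activin receptor Acvr1b at 0.30 (0.0416) and Met, a LECT2 receptor, at 0.25 (0.0496). Of the receptors that act in other organs, Gfral and Ret (for GDF15) and Acvr1c (for activin E) did not exceed 0.01, 0.02 and 0.03 FPKM in any HFLMCD liver. The called genes of all 9 lists kept their direction on log2(FPKM + 1), where the median of the receptor list was 0.04.

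PPARα and fasting targets had 4 of 20 genes called higher and 0 lower, against 4.95% and 3.18% of all genes, with a median of 0.21. Among the 4 were Ppara itself (0.49, adjusted p = 0.0173), Cpt1a of mitochondrial fatty acid entry (0.30, 0.0394) and Acot1 (0.90, 0.0448). Among insulin signalling genes and FOXO1 targets 2 of 12 rose and 1 fell. Pck1, the gluconeogenic enzyme, had 898, 391, 1016 and 1021 FPKM in livers 13 to 16 (Ad_Chrebpa_HFLMCD), against 305, 215, 386 and 352 in livers 9 to 12 (Ad_GFP_HFLMCD), a log2 fold change of 1.47 (adjusted p = 0.0181). Foxo1 rose by 0.39 on the log2 scale (adjusted p = 0.0377). In the growth hormone and IGF axis Igf1 rose by 0.43 (adjusted p = 0.00308) and Cish, a STAT5 target that restrains cytokine signalling, fell by 1.44 (adjusted p = 0.00933), 2 of 15 tested.

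Of the 18 acute-phase genes 8 rose and 0 fell with a median of 0.21, among them Lbp (0.80, adjusted p = 0.00129) and Saa1 (1.07, adjusted p = 0.00973), while Fgl1 had -0.11. For this list and those below, the shares over all genes were again 4.95% higher and 3.18% lower. The fibrinogen genes Fga, Fgb and Fgg were the 3 of 25 other secreted liver proteins that rose, by log2 fold changes of 0.44 to 0.47, and they belong to the acute-phase list too. In the list of ChREBP, its partners and targets 0 of 16 rose and 5 fell: Fasn (-1.03), Elovl6 (-0.86), Acaca (-0.57), Pklr (-0.54) and Acly (-0.35). The unfolded protein response list had 1 of 12 called, Herpud1, which was higher at 0.79 (adjusted p = 0.0322). Of its 12 genes, 9 had a negative log2 fold change, with a median of -0.24. By edgeR 10 of the 12 had an unadjusted p below 0.05, in either direction, against 26.5% of all genes. The integrated stress response list had 0 of 22 called. Bile duct markers were lower in these livers, 4 of 6 tested being called, with a summed level of 93.5 to 140.1 FPKM in Ad_Chrebpa_HFLMCD and 118 to 284 in Ad_GFP_HFLMCD; macrophage markers summed to 354 to 563 in Ad_Chrebpa_HFLMCD and 495 to 879 in Ad_GFP_HFLMCD, with 3 of 10 at a positive log2 fold change and 1 called, Itgax, which was higher (0.40, adjusted p = 0.0454). The part of either cell type in the hormone values was not tested.

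Between the experiments diet, weeks on diet, virus and mouse line all differ and cannot be told apart, so levels are set side by side without a test. Inhbe had 17.5 to 31.9 FPKM in the 8 NASH livers and 33.5 to 108 in the 8 HFLMCD livers, and Lect2 had 37.6 to 127 in NASH and 172 to 262 in HFLMCD livers, with no overlap for either. The other 7 genes overlapped between the experiments, with medians for Fgf21 of 3.47 FPKM over NASH and 18.4 over HFLMCD livers, and for Igfbp1 of 76.0 over NASH and 28.7 over HFLMCD livers. Over all 16 livers the highest level was 165 times the lowest for Fgf21 and 57.9 times for Enho, but 3.71 times for Igfbp2 and 4.14 times for Angptl4.

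To describe which genes varied most like each hormone from liver to liver, log2(FPKM + 1) was taken relative to the group mean and correlated over 16 livers with 10759 genes, which share libraries and depth. Lect2 had the closest partners: Sardh and Gstz1, enzymes of sarcosine and tyrosine breakdown, had Pearson r of 0.98 each (Spearman rho 0.98 and 0.97), and Clcn2 had 0.98 (rho 0.94). Fgl1 varied most like Serpina3n and Dnajc12 (r 0.95 each, rho 0.77 and 0.84) and Crybg3 (0.94, rho 0.86), with r of 0.99, 0.99 and 0.96 in the 8 NASH livers and 0.14, 0.18 and 0.56 in the 8 HFLMCD livers. Fgf21 varied most like Brd2 (0.87, rho 0.65), Dusp8 (0.86, rho 0.70) and Dnaaf5 (0.86, rho 0.84), and its r with Gdf15 was 0.57, being 0.26 in NASH and 0.90 in HFLMCD livers.

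Enho followed the mitochondrial chaperonin Hspd1 (r 0.89, rho 0.89), Cct7 (0.84, rho 0.85) and Zfp280b (0.84, rho 0.86). Of the 27 genes named for likeness, 20 had r of at least 0.7 in both experiments and 7 did not. Inhbe followed Tsr3 (0.87, rho 0.78), the lipolysis inhibitor G0s2 (0.86, rho 0.74, with r of 0.42 in NASH and 0.96 in HFLMCD livers) and the hepatokine Angptl8 (0.84, rho 0.76). For Igfbp2 the nearest were Kng2 (0.84, rho 0.83), the chaperone Hspa5 (0.81, rho 0.87) and Osgin2 (0.80, rho 0.82). Igfbp1 was nearest to Htra3 (0.88, rho 0.90), Rab30 (0.85, rho 0.75) and Ly6a (0.85, rho 0.79), Angptl4 to Rb1cc1 (0.87, rho 0.91), Lpin2 (0.87, rho 0.88) and Sbno1 (0.84, rho 0.86), and Gdf15 to Mtf1 (0.85, rho 0.85), Stk40 (0.84, rho 0.74) and Nup188 (0.82, rho 0.80).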

How the data were processed

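RNA of 16 livers was sequenced as 1 library each. Per the file headers, the authors' tables give expected counts (estimated, not normalised) and FPKM per gene. Per the submitters' processing notes HISAT2 aligned the reads; its version, the counter, the annotation and the build were not given in the sources. Unlisted genes were taken as 0, and 26 transcript entries were summed into their genes. Rounded expected counts entered the two-sided quasi-likelihood test of edgeR 4.0.16 under R 4.3.3, after filterByExpr and TMM scaling, adjusted by Benjamini-Hochberg over all genes, in 2 fits of 8 livers. Alternatives used DESeq2 1.42.0, limma 3.58.1 (voom, and log2 of FPKM plus 1 or 0.1), other filters and scalings, and left-out livers. Intervals are at 95%. Single livers were compared with Dixon's ratio (critical value 0.829 for 4). The test was also run on simulated data.

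The 9 genes, the lists, the markers and the motifs were chosen with earlier results of these data known. All 9 genes, the called genes of each list (some are not reported here), otherwise its genes of lowest p, and the 3 genes nearest to each hormone by correlation were named, and genes picked otherwise are said to be. The labels do not state that each liver is a separate animal, so p-values measure the spread between samples, which may be technical.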

Additional observations from a re-analysis of the deposited data

Results flagged for a closer look

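Of the 36 sets of 4 livers (9 genes in 4 groups), 6 held a liver standing apart by Dixon's ratio, against 6.24% of the 42887 such sets over all genes with a mean of at least 1 FPKM in the group. Chance alone sets apart about 1 in 20 where values are normal and independent, and these 9 genes share the same livers. In Ad_GFP_HFLMCD, liver 11 had 244 FPKM of Fgf21, against 14.4 to 19.4 in the other livers of the group. Liver 9 of that group had 21.4 FPKM of Enho, against 11.3 to 12.5 in the others. In LKO_NASH, liver 21 had 257 FPKM of Igfbp1, against 43.0 to 76.8 in the others, and 417 FPKM of Fgl1, against 66.6 to 86.7. In WT_NASH, liver 20 had 9.9 FPKM of Fgf21, against 1.48 to 2.63 in the others, and 194 FPKM of Igfbp1, against 61.1 to 78.5. All 6 were high values, and 3.90% of the sets over all genes held a high liver standing apart. The causes were not tested.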

How the results depend on the processing

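No paired analysis was possible because the groups share no replicate numbers. In the deletion experiment edgeR called 0 genes, and an unadjusted p below 0.05 was reached by 985 higher and 752 lower; DESeq2 called 159 genes and 1 of the 9 hormones, 1 fit of all 16 livers 152 and 1, and leaving out livers 19 and 21 together, which earlier results had set apart, 1525 and 3. Leaving out 1 liver gave 0 to 420 genes and 0 to 2 hormones, with 420 and 2 only without liver 21. Reversed values of log2 fold change were those of Fgf21 (-0.17 without livers 19 and 21, and -0.012 to 1.14 over single livers left out) and Igfbp1 (-1.02 to 0.40; 0.40, 0.19, 0.21 and 0.10 without liver 20, 22, 23 or 24). In the overexpression experiment 1110 genes were called, 60.9% of them higher; limma on log2(FPKM + 1) called 1435 with 30.5% higher. DESeq2 called 1902 genes and 1 fit of 16 livers 336 with 1 hormone, and 1 hormone was called on log2(FPKM + 1) without a filter. Leaving out 1 liver gave 400 to 1722 genes and 0 to 2 hormones: 0 without liver 9, 11, 12, 13 or 16, and 1 without 14 or 15. Gdf15 reversed without liver 11 (-0.68 to 0.0055), Fgl1 without liver 9 or 16 (-0.25 to 0.050; 0.0095 without liver 9) and Enho without liver 9 (-0.45 to 0.014). The causes were not tested. On log2(FPKM + 0.1) the median over all genes moved by 0.14 in the deletion experiment. DESeq2 gave no adjusted p for Igfbp1 in the deletion or Fgf21 in the overexpression experiment. Depth limits Enho most, with 10 expected counts in liver 23.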
